A study of Rattus norvegicus with 119 samples.

Results

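Tnfsf13b (ENSRNOG00000014464) was followed across Tag-seq, RNA-seq and single-cell RNA-seq of female rat urogenital mesenchyme, as 1 of 32662 genes in the count tables. The gene lies on chromosome 16, from position 85275678 to 85306366 of Rnor_6.0. It was chosen by its read counts, which lay in cells of the ventral mesenchymal pad (VMP) and hardly in cells of the adjacent urethra, so its levels, ratios and numbers of positive cells are given as a description, with no test.

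Tnfsf13b encodes B cell activating factor (BAFF), a ligand of the tumour necrosis factor (TNF) superfamily. It is made as a membrane protein, can be released by furin cleavage, and is known for sustaining B cells through the receptors BAFF-R, TACI and BCMA, partly by way of the non-canonical NF-kB pathway. Myeloid cells are a well known source, and stromal cells can also make it. The VMP is a mesenchyme that lies on the female urethra and can induce prostatic epithelium.

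All samples came from female Wistar rats on the day of birth (P0, day 0), with no treatment or transgene in either tissue. Microdissected VMP was compared with SU, the neighbouring urethra, which holds urethral epithelium with its peri-urethral mesenchyme and smooth muscle. Tag-seq read pooled tissue, whereas RNA-seq and single-cell libraries were made from tissue dissociated with collagenase, a step that left much of the SU epithelium behind. Each tissue had 1 Tag-seq library and 1 RNA-seq library, beside 49 VMP and 66 SU single cells, all from pooled animals.

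The Tag-seq libraries held 7870450 counts in VMP and 8215177 in SU, and the RNA-seq libraries 4397699 and 7007767. Single cells held 248738 to 1200734 gene counts in VMP, with a median of 614376, and 199849 to 1488320 in SU, with a median of 631066. The cells were scored with 16 VMP genes and 6 SU genes named by the study. Of these, Ebf3, Meis2, Gfra3, Nmur2, Scara5, Slc26a7 and Robo1 for VMP and Anxa1, Enpp2 and Unc5b for SU were candidates it drew from these samples, and the others were known before. Rspo2 was named by the study in both ways, as known before and as a candidate. The mean log2 level of the VMP genes minus that of the SU genes ran from 1.03 to 6.33 in VMP cells and from -6.00 to 0.75 in SU cells, without overlap. The candidates had been chosen for differing between these tissues, so this separation was partly fixed in advance and is no independent check of the labels. Among the SU genes, Aldh1a3 was higher in VMP, with log2 ratios of 1.41 in Tag-seq, 1.19 in RNA-seq and 1.15 in summed cells. Bmp4 was higher there in Tag-seq only (1.70). Anxa1, Enpp2, Unc5b and Wnt5a were lower in VMP in every assay, though Wnt5a hardly in Tag-seq (-0.16). The mesenchymal matrix genes Col1a1, Col3a1 and Dcn had reads in 49 of 49 VMP and 66 of 66 SU cells. Other matched mesenchyme genes had reads in fewer VMP cells. Pdgfra and Lum had reads in 48 each, Pdgfrb in 34, Twist2 in 26, and Twist1 and Dpt in 13 each. In SU cells the numbers were 63, 66, 64, 51, 46 and 63 in the same order.

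Tnfsf13b was higher in VMP than in SU in every assay, but the distance between the tissues differed widely from assay to assay. In Tag-seq the VMP library held 1918 reads of Tnfsf13b, or 243.7 counts per 1000000 gene counts (CPM; 95% Poisson interval 232.9 to 254.9). The SU library held 333 reads, or 40.5 CPM (36.3 to 45.1). In RNA-seq the VMP library held 1443 reads, or 328 CPM (311 to 346), and the SU library 7 reads, or 0.999 CPM (0.402 to 2.06). Summed over single cells, Tnfsf13b reached 7396 reads in VMP, or 248 CPM (242 to 254), and 11 reads in SU, or 0.249 CPM (0.124 to 0.445). The 3 VMP levels thus lay between 243.7 and 328 CPM, and the SU level was at or below 1 CPM in both assays of dissociated cells. These intervals cover counting error only, and the levels were set beside each other across assays with different chemistry.

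**Figure D1:**
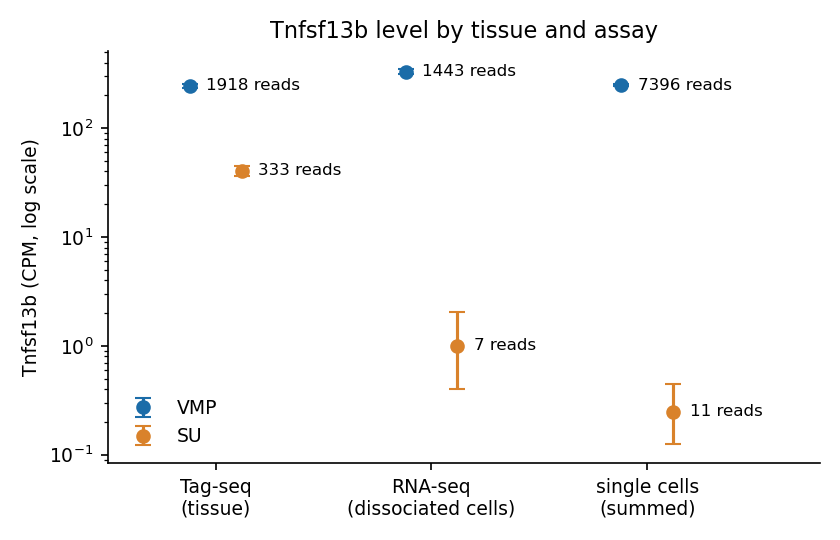
Level of Tnfsf13b in CPM (log scale) in VMP and SU for Tag-seq, RNA-seq and summed single cells, with 95% Poisson intervals and the number of reads beside each point. The VMP points lie between 243.7 and 328 CPM, whereas the SU points fall from 40.5 CPM in Tag-seq to 0.249 CPM in summed single cells.

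By Tag-seq the VMP level of Tnfsf13b was 5.49-fold the SU level, which is 2.46 on the log2 scale (2.29 to 2.63, by counting error). The log2 ratio was 8.05 by RNA-seq (7.10 to 9.46) and 9.90 over summed single cells (9.12 to 10.96). Ranked toward VMP, Tnfsf13b was number 162 of 12191 genes in Tag-seq, number 11 of 17527 in RNA-seq and number 60 of 14450 in summed single cells. Ratios of at least 1.5 on the log2 scale toward VMP were held by 7.2% of genes in Tag-seq, 16.1% in RNA-seq and 17.8% in summed cells, and nothing is read from Tnfsf13b being among them. The median log2 ratio of all genes was -0.01, 0.03 and 0.07 in the same order. The 11 SU reads came from 3 cells, and SU cell 18 held 9 of them. Without that cell the summed ratio was 12.08, so its size rests on a handful of SU reads.

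The SU level of Tnfsf13b was where the assays parted. It was 40.6 times higher in Tag-seq than in RNA-seq in SU, whereas in VMP the Tag-seq level was 0.743 of the RNA-seq level. With the scaling used for the ratios, the log2 ratio of VMP over SU was 5.59 larger in RNA-seq than in Tag-seq. This increase rests on 7 SU reads in RNA-seq. Of 11273 genes measured in both assays, 179 (1.59%) had a larger increase, and the median over all of them was -0.05. Among the 16 VMP genes named by the study, the median increase was 0.65 and 0 exceeded Tnfsf13b. The nearest was Gfra3, a co-receptor of the GDNF family, with an increase of 4.64 and an SU level that stood at 54.4 CPM by Tag-seq but at 1.57 CPM by RNA-seq. Rspo2, an R-spondin that amplifies Wnt signalling, followed the same course to a lesser extent, with SU levels of 22.9 CPM by Tag-seq and 3.14 CPM by RNA-seq. The SU level of Sfrp1 was 60.02 times higher in Tag-seq than in RNA-seq, more than for Tnfsf13b. Its VMP level was 18.6 times higher as well, and its increase was 1.56. Nell2 had an increase of 2.61 without a drop in SU, where it stood at 16.1 CPM by Tag-seq and 20.98 CPM by RNA-seq. Its VMP level went from 40.9 to 346.3 CPM. Ebf3, a transcription factor, had a shift of -0.78.

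Other cell type markers moved between the SU libraries as well. The summed level of the epithelial list (14 of 15 genes matched) was 9713 CPM in SU Tag-seq, 261 CPM in SU RNA-seq and 8.98 CPM in summed SU cells. In VMP it was 584, 24.1 and 9.53 CPM in the same order. The epithelial adhesion gene Epcam held 45395 reads in SU Tag-seq and 123 in SU RNA-seq, and in single cells it was at 1 read in each of 5 VMP cells and at 8 reads in total in 8 SU cells. The mesenchyme list (9 of 11 genes) stood at 23823 CPM in SU Tag-seq and 50617 CPM in SU RNA-seq, but at 46767 and 22111 CPM in VMP. Of the smooth muscle and pericyte list 3 of 10 genes were matched, and their summed level was 780 CPM in SU Tag-seq and 94.2 CPM in SU RNA-seq. Among them Lmod1, a leiomodin of smooth muscle, went from 261 to 2.00 CPM in SU. In VMP it held 606 reads of 7870450 counts in Tag-seq and 23 of 4397699 in RNA-seq. Des also fell in SU, from 502.2 to 28.4 CPM, but Rgs5 rose there from 16.1 to 63.8 CPM. Of the macrophage and monocyte list 3 of 16 genes were matched, and their summed level was 138 CPM in SU Tag-seq, 54.7 CPM in SU RNA-seq and 19.0 CPM in summed SU cells. These 3 genes did not move together. Cd14 rose over the same SU assays, from 6.82 to 14.8 and 18.8 CPM. It held 831 of the 840 reads of the list in summed SU cells. Cd74 fell from 92.4 to 33.1 and 0.0226 CPM, and Laptm5 from 38.95 to 6.71 and 0.181 CPM. Whether any of the listed cell types carried the SU Tag-seq reads of Tnfsf13b was not tested. In such tissue libraries, fewer cells of a type and less RNA per cell cannot be told apart.

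Single cells placed the reads of Tnfsf13b in VMP. At least 1 read was found in 44 of 49 VMP cells (89.8%, Clopper-Pearson 95% interval 77.8 to 96.6) and in 3 of 66 SU cells (4.55%, 0.947 to 12.7). At least 10 reads were found in 27 of 49 VMP cells (55.1%, 40.2 to 69.3) and in 0 of 66 SU cells (0 to 5.44 by the same interval). Taken as 3 counts of the total, a count of 0 of 66 SU cells allows a share of up to 4.55%. These intervals and this limit treat cells as independent draws, but the cells of a tissue came from 1 pool and are not replicates. They describe the dissociated cells and not the whole tissue, and the gene was chosen for these counts. The SU cells with reads were cell 18 with 9 reads, cell 92 with 1 read and cell 95 with 1 read. SU cell 18 had reads of 10057 genes, the most of the 66 SU cells, and its score of VMP over SU genes was -3.29, close to the SU median of -3.28. The scores of the other SU cells with reads lay nearer to VMP. Cell 92 had -1.34 (rank 10 of 66), and cell 95 had 0.58 (rank 2), near the highest SU score of 0.75. VMP cells held 99.9% of all single-cell reads of the gene.

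**Figure D2:**
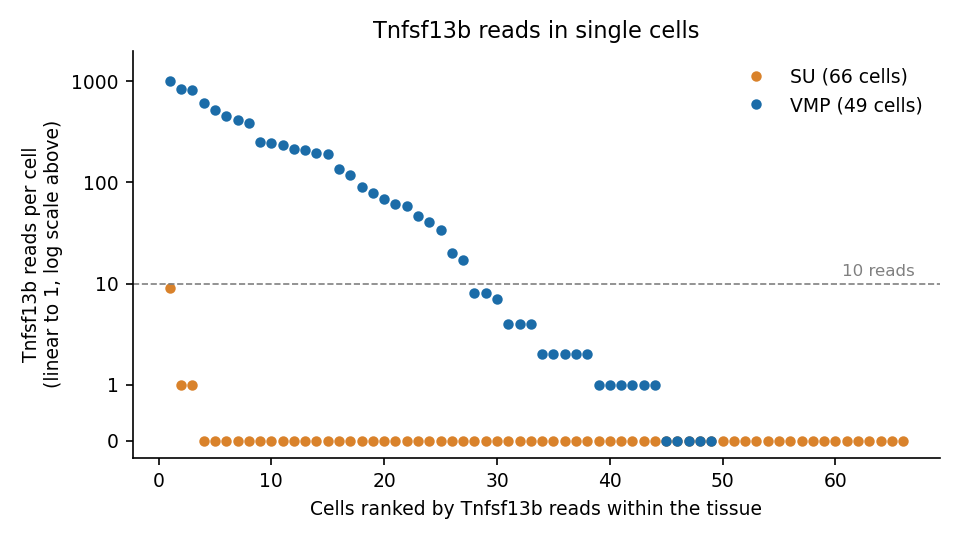
Reads of Tnfsf13b per cell (linear to 1, log scale above) for 49 VMP and 66 SU cells, each ranked within its tissue, with a dashed line at 10 reads. The VMP cells descend from 995 reads to 0, with 27 cells above the line, and the highest SU cell stands at 9 reads.

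The separation was also present at equal depth. Thinned to 199849 counts per cell, the depth of the shallowest cell, 39 VMP cells and 1 SU cell kept at least 1 read, and 24 VMP cells and 0 SU cells kept at least 10. With cells beyond 3 median absolute deviations left out, the numbers were 42 of 47 VMP cells and 3 of 64 SU cells at 1 read, and 26 and 0 at 10 reads. The median depths were alike, and 1 read was worth a median of 1.63 CPM in VMP and 1.58 CPM in SU cells.

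At 1 read in the counts as deposited, Tnfsf13b had the widest gap between the tissues, but not at equal depth or at 10 reads. The share of VMP cells with at least 1 read exceeded the SU share by 85.3 percentage points for Tnfsf13b, rank 1 of 32662 genes, and a gap of at least 50 points was held by 26 of 19097 genes with reads (0.136%). Chrdl1, a secreted antagonist of bone morphogenetic proteins, came next among named genes, with 48 VMP and 16 SU cells. Nell2, a secreted glycoprotein, had reads in 41 VMP and 12 SU cells. Slc5a7, the choline transporter, had reads in 35 and 7 cells. Nmur2, a neuromedin U receptor, had reads in 27 VMP and 0 SU cells, but only 4 VMP cells reached 10 reads. Chrdl1 and Slc5a7 were singled out after their values were seen.

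At 10 reads the gap of Tnfsf13b was 55.1 points, rank 6, and 8 of 19097 genes (0.0419%) had at least 50 points. Slc26a7, an anion exchanger, reached 10 reads in 42 VMP and 8 SU cells, and Chrdl1 in 39 and 5. Fgf10, a growth factor of mesenchyme that drives epithelial budding, reached 10 reads in 37 and 15 cells. Thinning also moved the order at 1 read, where Tnfsf13b had rank 3 with a gap of 78.1 points and Chrdl1 rank 1 with 80.2 points. The number of cells with reads depends on the level and length of a transcript, so these ranks describe the separation of cells and not the level of the genes.

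**Figure D3:**
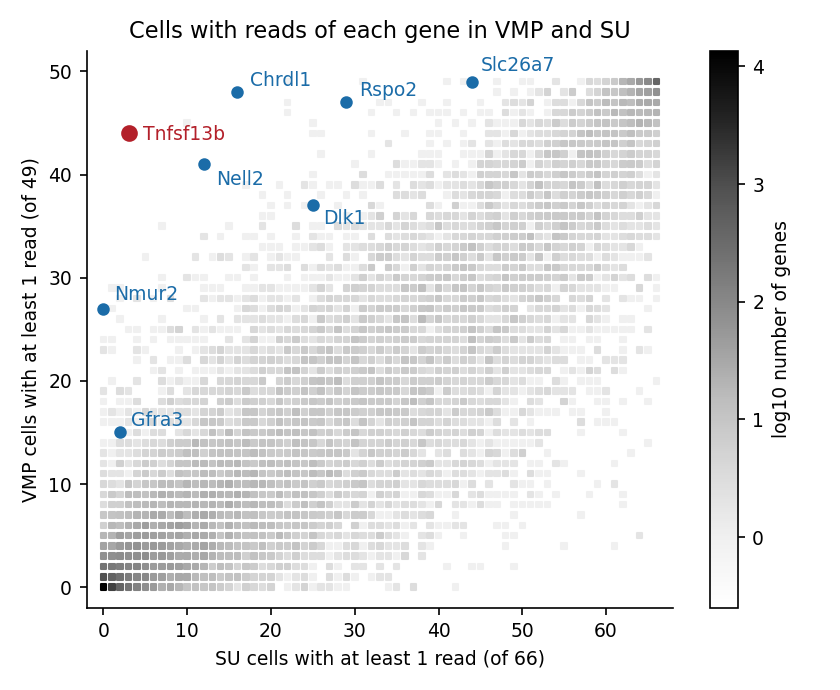
Number of SU cells (of 66) and of VMP cells (of 49) with at least 1 read of each gene; the grey shade gives the log10 number of genes at that position. Tnfsf13b (red) lies at 44 VMP and 3 SU cells in the upper left corner, with Chrdl1 at 48 and 16 and Nell2 at 41 and 12.

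The VMP cells differed strongly among themselves. Reads of Tnfsf13b per VMP cell ran from 0 to 995 with a median of 34, and VMP cell 66 held the most. On the CPM scale the lowest cell was at 0, the quartiles were 4.66 and 311, the median was 48.9 and the highest cell was at 1548. There were 5 cells with 0 reads, 17 with 1 to 9, 10 with 10 to 99 and 17 with 100 or more. No VMP cell held more than 8 and fewer than 17 reads, so a limit of 10 reads fell into an empty stretch.

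Low counts of Tnfsf13b were set beside those of genes held mostly by 1 cell. The 17 VMP cells with 1 to 9 reads held 51 reads in all, 0.690% of the VMP reads. For this, 68 genes were taken after the data were seen that had at least 1000 VMP reads with at least 90% of them in 1 cell. Such genes had at least 1 read in a median of 7 other VMP cells (quartiles 5 and 11, highest 40) and at least 10 reads in a median of 1 other cell (highest 7). For the 15 of these genes with at least 2000 reads the median was 14 other cells with a read (quartiles 7.5 and 21). These genes were chosen for having few reads outside 1 cell, so they do not separate stray reads from low expression, and which of these the counts of Tnfsf13b under 10 hold was not tested.

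The reads of Tnfsf13b were spread over VMP cells about as widely as those of other genes with like totals. The top 5 VMP cells held 51.2% of the reads and the top cell 13.5%. For 772 genes with 4931 to 11094 summed VMP reads, a median of 5 cells held 50% of the reads (quartiles 3 and 6), and the top cell held a median of 17.3%. These genes had at least 1 read in a median of 43 VMP cells (quartiles 36 and 47), against 44 for Tnfsf13b, and at least 10 reads in a median of 26 (quartiles 19 and 34), against 27. The numbers of cells for Tnfsf13b thus lay near the medians of these genes, and the share of its top cell lay near their lower quartile of 12.7%.

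**Figure D4:**
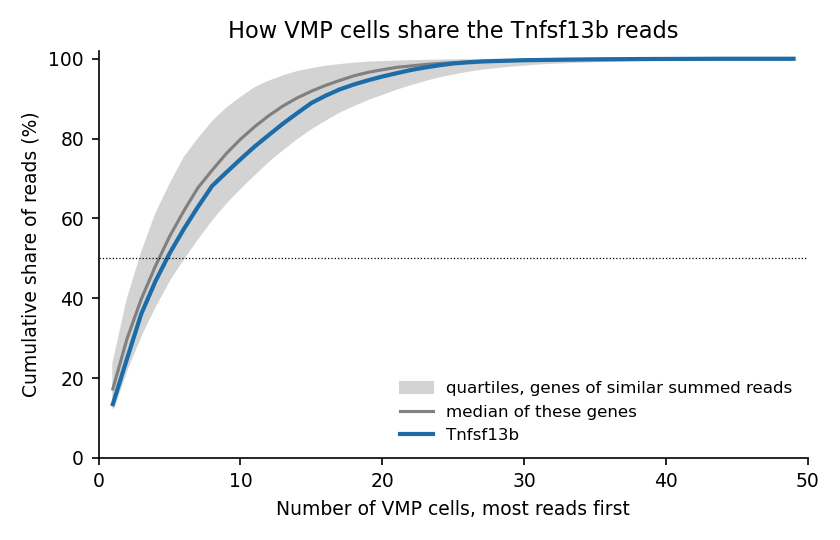
Cumulative share of reads (%) against the number of VMP cells, taken from the cell with the most reads, for Tnfsf13b (blue) and for 772 genes of similar summed reads (grey line, median; grey band, quartiles). The curve of Tnfsf13b stays within the band at the top cell and at the top 5 cells, where it stands at 13.5% and 51.2%.

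The other VMP genes ranged from reads in every cell to reads in a few. Fgf10 had reads in 49 of 49 VMP cells and in 65 of 66 SU cells, with 13484 reads in VMP and 907 in SU. Ebf3 had reads in every cell of both tissues. Rspo2 was close to Tnfsf13b within VMP, with reads in 47 VMP cells, at least 10 reads in 26 and 50% of the reads in 5, but it had reads in 29 SU cells. Dlk1, a non-canonical Notch ligand, reached 10 reads in 26 VMP and 12 SU cells. Gfra3 had reads in 15 VMP and 2 SU cells. Scara5, a scavenger receptor, showed the narrowest spread, since 1 VMP cell held 2933 of its 3175 reads and 0 SU cells had a read. In summed cells the log2 ratios of the 16 VMP genes started at 1.42 and had a median of 3.40. Scara5 and Nmur2 had 0 SU reads, so their ratios are lower bounds against 3 counts over the SU cells, at least 10.62 for Scara5 and at least 7.57 for Nmur2. With these bounds 1 of the 16, Scara5, exceeded the 9.90 of Tnfsf13b, and the median was again 3.40. In RNA-seq 0 of the 16 exceeded Tnfsf13b, and in Tag-seq 4 did. For the candidates drawn from these samples the direction is not independent evidence.

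The few matched markers of blood cells were sparse in VMP cells. The 3 matched macrophage genes were Cd14, Laptm5 and Cd74. Laptm5, a lysosomal membrane protein of blood cells, had 1 read in each of 2 VMP cells, which held 1 and 388 reads of Tnfsf13b. Cd14, the co-receptor for lipopolysaccharide, had reads in 7 VMP cells, with at most 51 reads in VMP cell 13, which held 78 reads of Tnfsf13b. Cd74, the invariant chain of MHC class II, had 70 reads spread over 20 VMP cells, with at most 11 in a cell, and 1 read in SU cells. Of the lymphocyte list Cd8a alone was matched, with 21 reads in 2 VMP cells. With 3 of 16 and 1 of 11 genes matched, both lists are too incomplete to place the cells.

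Genes around BAFF in its pathway were matched only in part. Of 13 genes for signalling and processing 2 were matched, and the 3 receptors of BAFF were not analysed here. Tnfsf13, the related ligand APRIL, had 255 VMP and 89 SU reads in Tag-seq, with a log2 ratio of 1.45 (1.10 to 1.82). In RNA-seq it had 25 and 4 reads, with a ratio of 2.96 (1.57 to 5.09). In single cells its direction was opposite to that of Tnfsf13b, with 6 reads in 2 VMP cells and 504 reads in 9 SU cells. Relb, a subunit of non-canonical NF-kB, likewise had log2 ratios of 1.59 in Tag-seq, 0.90 in RNA-seq and -3.60 in summed cells. Its single-cell reads were 41 in 1 VMP cell and 745 in 10 SU cells. For both genes few cells held the reads.

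The other matched TNF ligands had few or no reads in VMP cells. Tnfsf9, the ligand of 4-1BB, had 0 reads in VMP RNA-seq and 61 in SU RNA-seq, and 417 reads in 3 SU cells but 0 in VMP cells. Cd40lg, the CD40 ligand, had 12 VMP and 69 SU reads in RNA-seq, and its reads lay in 11 VMP and 21 SU cells, 0 of which held 10 reads. Of 25 TNF receptors 7 were matched. Tnfrsf1a, the main TNF receptor, was lower in VMP in all 3 assays, with log2 ratios of -1.59 in Tag-seq, -0.36 in RNA-seq and -1.11 in summed cells. Tnfrsf21 was lower as well, at -1.88, -2.05 and -4.81. Tnfrsf14 stood at 1.35, -0.26 (-0.59 to 0.05 by counting error) and 0.96. The last rested largely on 1 VMP cell, which held 826 of its 1014 reads in VMP cells. Tnfrsf11b, the decoy receptor osteoprotegerin, stood at 0.26, -3.43 and -1.62. Relt was higher in VMP in Tag-seq and in summed cells, at 2.20 and 4.02, but at -0.89 in RNA-seq. Its Tag-seq ratio rested on 79 VMP and 16 SU reads. In single cells it had 235 reads in 3 VMP cells, 146 of them in 1 cell, and 21 reads in 2 SU cells. Tnfrsf11a, the receptor RANK, stood at -3.55 in Tag-seq, had 2 VMP and 27 SU reads in RNA-seq, and stood at 4.22 in summed cells, on 31 reads in 2 VMP cells and 2 reads in SU cells. Tnfrsf19 stood at -4.57 in Tag-seq and -1.08 in summed cells, and had 0 VMP and 275 SU reads in RNA-seq. Of its 526 reads in VMP cells, 492 lay in 1 cell.

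Genes that varied with Tnfsf13b among VMP cells were sought by Spearman correlation over the 49 cells. Likeness was the weaker of the coefficients on spike-in normalised counts and on CPM, or 0 where their signs differed (560 genes), over 5778 genes with reads in at least 20 VMP cells. It ran from -0.44 to 0.57, with 13 genes at or above 0.4 (0.225%) and 1 gene at or below -0.4 (0.0173%). The cells came from 1 pool and share its depth and chemistry, counts were sparse, and no chance level was computed, so these values rank genes and name no partner. The most alike were ENSRNOG00000006126, with 0.57 and reads in 31 VMP cells, and ENSRNOG00000009935, with 0.52 and reads in 41. Of the 10 most alike genes 0 were paired with a symbol here, and 808 of the 5778 genes were.

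Among genes with a symbol, the likeness values were lower. Adipor2, an adiponectin receptor, had 0.41, but on 240 reads in 20 VMP cells, the fewest cells allowed, and 0.27 by Pearson's r. Matn2, a matrilin of the extracellular matrix, had 0.39, and Aspn, the matrix proteoglycan asporin, 0.37. Piezo2, a mechanically gated channel, had 0.36. These genes were named after their values were seen. At the other end ENSRNOG00000040005 had -0.44 and ENSRNOG00000052226 -0.40. Ifngr2, a subunit of the interferon gamma receptor, had -0.40, but on 115 reads in 24 VMP cells. Its partner Ifngr1 changed sign between the scales.

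The VMP genes covered a range of likeness to Tnfsf13b from cell to cell. Of the 16 VMP genes 13 were measured in enough cells, and their likeness ran from -0.05 for Meis2 to 0.33 for Ebf3. Their median was 0.07, and 11 were above 0. Over all 5778 genes the median was 0, and a likeness of 0 had rank 2843. Ebf3 had rank 44 of 5778. Igf2, an insulin-like growth factor, had 0.32 (rank 80), Rspo2 0.23 (rank 308), Sfrp1, a secreted Wnt antagonist, 0.19, and Fgf10 0.07. The limit of 0.4 was reached by 0 of the 13 and by 0.225% of all genes. Nothing is read about the list from the number above 0 or at this limit. The 7 mesenchyme genes measured ran from -0.12 for Lum to 0.24 for Pdgfrb. The reads of Tnfsf13b themselves hardly followed the depth of the cells. Their Spearman coefficient was -0.09 with gene counts, 0.02 with genes detected and 0.00 with the share of spike-in reads (n = 49 cells). On the CPM scale the coefficient with gene counts was -0.19.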

How the data were processed

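Groups followed the tissue and assay that the labels name. The labels' protocol gives 52 VMP and 63 SU cell libraries, whereas titles and column headers give 49 and 66, which were used here. The authors deposited raw counts of reads per Ensembl gene in all 3 assays, aligned to Rnor_6.0. Per the labels and the methods, tools included Bowtie2, Trimmomatic 0.33, TopHat and Picard 1.128. Use of strand in counting is not given in the sources used here, and reads carry no molecular identifiers. The 95 spike-in rows stayed out of library sizes.

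CPM was taken over gene counts. Log2 ratios used TMM factors (edgeR 4.0.16, R 4.3.3) in the bulk libraries, the alternative DESeq2 1.42.0 size factors, a pseudocount of 0.5 counts and genes above 1 CPM. Summed cells were scaled by summed gene counts. Poisson and Clopper-Pearson intervals are at 95%. With 1 library per tissue no test was made. Computation ran in Python 3.11.15 with pandas 2.3.3, numpy 2.4.6 and scipy 1.17.1, figures in matplotlib 3.10.9, and the procedures were tested on simulated data. Doublets were not removed.

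Symbols and coordinates came from the study's tables of differentially expressed transcripts, which pair 2995 IDs. The fold changes and q values there were not used. Lists with under 80% of members matched are given by gene only or as incomplete. The genes named were the 10 highest and 5 lowest by likeness (at most 2 unpaired IDs in each direction are printed), the matched pathway genes, and list members where a list is discussed. The gene, lists and rule were chosen with earlier results of these data known. Alternatives covered scaling, pseudocount, filters, thinning, other correlations and left-out cells.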

Additional observations from a re-analysis of the deposited data

How the results depend on the processing

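Of 41 alternatives over 10 results, 29 left the value within its limits, and 105 alternatives over the likeness of 16 named genes kept their direction. For 1 scale alone that direction was fixed in advance, since a likeness other than 0 needs the same sign on both. The limit of 10 cells leaves the value of a gene unchanged. Most of the 16 were also named for extreme values in these cells, and settings in which a gene had no value were not counted. The summed-cell log2 ratio of 9.90 was 8.26 from means of spike-in normalised counts, 11.90 without the VMP and the SU cell with the most reads, and 12.08 without SU cell 18, the last chosen after seeing the data. Thinning left 1 SU cell with a read in place of 3. The 13 genes with a likeness of at least 0.4 became 7 in thinned cells (5 shared with the 13) and 21 in VMP cells with at least 1 read only (6 shared). With Pearson's r there were 11, of which 5 were shared. The 1 gene at or below -0.4 became 2 on spike-in normalised counts only, 12 on CPM only, 3 with genes in at least 10 cells, 0 in thinned cells, 4 without the VMP cell with the most reads and 3 in VMP cells with at least 1 read only. The cause of these shifts was not tested. The likeness lists thus depend on the setting, and the SU level in cells rests on 11 reads. No paired analysis was possible because there was 1 library per tissue, cell numbers only name cells, and no test was made.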

Other observations

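The column headers of the VMP cells carry letters from A to H whose meaning is not given in the sources used here. In the 6 VMP cells with the letter F, reads of Tnfsf13b ran from 34 to 450 with a median of 125, and 6 of 6 held at least 10. In the 5 cells with the letter H they ran from 0 to 47 with a median of 0, and 1 held at least 10. The 5 cells with the letter G ran from 0 to 91, and 2 held at least 10. The 8 cells with the letter C ran from 2 to 995, and 4 held at least 10. Cells with at least 10 reads numbered 3 of 5 for the letter A, 3 of 6 for B, 3 of 5 for D and 5 of 9 for E. Over all letters they were 27 of 49. F and H had the largest and the smallest share, and the letters were not compared by a test.

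Among the genes that separated VMP from SU cells at 10 reads were Capn6, a calpain family member, with 44 VMP and 20 SU cells, and Pkp4, a plakophilin, with 44 and 26. Both were singled out after their values were seen.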
